A study of Mus musculus with 19 samples.

Results

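RNA of mouse induced pluripotent stem cells, which are body cells returned to an embryo-like state, was compared between lines in which the db mutation of Lepr, the gene of the leptin receptor, had been corrected and wild type control lines. All lines came from fibroblasts of embryos at embryonic day 14.5, bred from parents heterozygous for the mutation, and were reprogrammed with the STEMCCA lentivirus, which carries Oct4, Sox2, Klf4 and cMyc. The corrected group was made from db/db cells with CRISPR-Cas9 and held 2 lines (db_c_1 and db_c_2) with 4 libraries. The control group, from wild type embryos of the same breeding, held 4 lines with 7 libraries. These 11 libraries of 6 lines were chosen by their group label out of 19 libraries of 10 lines. The other 8 libraries, from 4 db/db lines homozygous for the mutation, entered the same fit and are given beside the comparison. Both compared groups carry the reprogramming virus and a working receptor gene, and the corrected lines alone also went through gene editing. Which db/db line gave rise to the corrected lines is not stated, nor whether they are clones of one edited cell, or whether the duplicate libraries of a line were separate cultures. Editing, clonal origin and founder embryo therefore cannot be told apart from the group.

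The leptin receptor signals in its long form through the kinase JAK2 and the transcription factor STAT3, and the db mutation disturbs the splicing of that form. In mouse pluripotent cells the same kinases and STAT3 also act under the cytokine LIF, which holds cells in the undifferentiated state. Protein synthesis depends on ribosomes, on tRNA charged with amino acids and on initiation factors, and it is adjusted by growth signals through the kinase mTOR, by the transcription factor MYC and by the stress factor ATF4. The title of the study names protein synthesis and neuronal differentiation, so genes of these processes are described first, followed by signalling and cell state.

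The 4 corrected libraries held 29842688 to 40331091 estimated counts and the 7 control libraries 31318856 to 41203703. Duplicates were summed per line, and levels are in CPM (counts scaled to a common library size with TMM factors), given per line in the order db_c_1, db_c_2 for corrected lines and aB6_A5, bB6_A5, aB6_B1, bB6_B1 for control lines. Lines of a shared name were near copies. The biological coefficient of variation was 2.04% between both corrected lines, 3.31% between both A5 lines and 2.17% between both B1 lines, but 17.7% to 18% between A5 and B1 lines. Between corrected and control lines it was 24.8% to 25%, and between corrected and db/db lines 24.9% to 26.9%. Line labels did not order the libraries within a shared name. The chi-square of counts per degree of freedom was 3.95 between db_c_1a and db_c_2b and 3.07 between db_c_1b and db_c_2a, against 15.6 between both libraries of db_c_1 and 9.33 between both of db_c_2. Likewise it was 2.68 between the second libraries of aB6_B1 and bB6_B1, against 7.54 and 14 within these lines. The p-values thus measure the spread of lines that are partly copies, and the fit with the shared name as the unit is given beside the counts. With 2 lines against 4 an exact permutation test of a single value cannot go below p = 0.0667, so no such test was used, and calls come from edgeR's quasi-likelihood test across all genes.

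The labelled cell type was checked against markers. The summed level of 7 pluripotency markers was 3237 and 3265 CPM in corrected lines, 3770 to 4046 in db/db lines and 3634 to 3846 in control lines. Pou5f1, Esrrb and Utf1 fell and the other 4 were not called. Summed levels of 9 fibroblast markers were 140.8 to 179.9 CPM in corrected, 103.9 to 162.8 in db/db and 210.5 to 292.2 in control lines. For 5 neural markers the sums were 30.69 to 30.92, 43.19 to 71.17 and 73.04 to 114.5 CPM in the same order, and for 7 primitive endoderm markers 17.68 to 19.65, 9.168 to 16.83 and 10.95 to 13.33 CPM. Tubb3 was the one neural marker called. Among 4 trophoblast markers, with sums of 7.057 to 7.23, 1.267 to 2.69 and 2.228 to 3.55 CPM, Gata3 alone was called. In bulk RNA, fewer cells of a type and less RNA per cell cannot be told apart.

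Of 19700 tested genes, 6537 (33.2%) passed edgeR's test between corrected and control lines at a Benjamini-Hochberg adjusted p under 0.05. Of these, 3184 rose (16.2%) and 3353 fell (17.0%), with a median log2 fold change of all tested genes of -0.008. Scaling by library size alone moved this median to 0.121 and the share of calls that rose to 68.3%, against 48.7% with TMM. At least 2-fold changes were seen in 2078 genes (10.5%), with 1357 up (6.89%) and 721 down (3.66%). A stricter count, in which corrected lines lay outside the range of the control lines and at least 2-fold from the mean of both A5 and B1 lines, held 1477 genes (7.50%), with 980 up (4.97%) and 497 down (2.52%). With the shared name as the unit, 2547 of 21134 genes were called (12.1%; 5.81% up and 6.25% down), and limma-voom called 10.3%. The shared name fit merged control and db/db lines by name but kept both corrected lines apart, although they too were near copies. Against A5 lines alone 60.0% and against B1 lines alone 59.5% of genes were called. These fits took their spread only from lines of a shared name, so their shares are not comparable with the 33.2%. Leaving out a corrected line leaves a single line, assumed to vary like those of the other groups. Without db_c_1, 11.9% of genes were called (6.43% up and 5.46% down), without db_c_2 11.6% (6.34% and 5.24%), and without a control line 5727 to 5826 genes. The counts of each list below are read against these shares, and those without one corrected line follow them. Direction depended on level: of 2200 genes over 100 CPM, 169 rose and 847 fell, while of 6111 genes under 1 CPM, 793 rose and 334 fell.

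Among the largest rises that met the stricter count at 5 CPM or more, several genes were nearly silent in control lines, but not all. Cd200 (chr16:45382135-45409053, GRCm38), which encodes a surface glycoprotein that restrains myeloid cells, was at 15.9 and 16.4 CPM in corrected lines, against 0.919, 0.802, 1.02 and 0.770 CPM in control lines. The db5 lines of the db/db group stood at 2.66 and 2.54 CPM and the db7 lines at 0.744 and 0.719, so the db5 lines also lay above the control range but far below the corrected lines (log2 4.20 ± 0.48 SE, edgeR adjusted p = 0.000319). Hmga2, a chromatin protein of embryonic cells, was the most abundant of the leading rises besides Nlrp4f, at 156 and 155 CPM in corrected lines, 18.5 to 32.5 in db/db lines and 22.0, 18.7, 28.4 and 27.4 in control lines (2.69 ± 0.24, edgeR adjusted p = 9.44e-05). Nlrp4f, of a gene family active in the egg, was at 174 and 176 CPM in corrected lines and 57.9 to 128 in db/db lines, against 33.3, 31.3, 18.7 and 18.04 in control lines (2.79 ± 0.36). The metalloproteinase gene Mmp12 was at 7.93 and 8.02 CPM in corrected and 0.472 to 0.727 CPM in control lines (3.68 ± 0.32), and Slc1a1, a glutamate transporter, at 10.6 and 10.9 against 1.27 to 1.97 CPM (2.72 ± 0.46).

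In some leading rises the db/db lines also lay above the control range. They were at the level of the corrected lines for AA465934 and below it for Obox6, Cachd1, Nlrp4f, Clec2g, Dnah12 and Mypn. The noncoding transcript AA465934 was at 10.04 and 9.47 CPM in corrected lines and 9.81 to 11.4 CPM in db/db lines, against 0.561 to 0.943 CPM in control lines. The ranges of corrected and db/db lines overlapped (3.75 ± 0.18 against control lines, edgeR adjusted p = 3.93e-06). Obox6, an early embryo homeobox gene, was at 50.1 and 48.5 CPM in corrected lines and 27.03 to 29.9 in db/db lines, against 10.7 and 9.79 CPM in the A5 control lines and 1.495 and 1.28 CPM in the B1 lines. Cachd1, which lies on chromosome 4 (chr4:100776675-101029220) near Lepr (chr4:101717404-101815352), was at 49.96 and 51.0 CPM in corrected and 18.8 to 24.7 CPM in db/db lines, against 9.48, 7.99, 3.75 and 4.06 CPM in control lines (3.01 ± 0.32). The other named rises were Slamf6, Ugt1a6b, Clec2g, Rin3, Dnah12, Mypn and Aox3, with log2 fold changes of 2.65 to 3.82.

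The falls included a Nodal target and a neuronal tubulin. Lefty1, an inhibitor of Nodal and one of its direct targets, was at 15.1 and 17.8 CPM in corrected lines, 133 in both db5 lines, 43.2 and 38.5 in db7 lines, and 176, 186, 130.5 and 127 CPM in control lines. The corrected lines were below every other line (-3.23 ± 0.57, edgeR adjusted p = 0.00254). Tubb3, the tubulin of neurons, was at 12.1 and 13.02 CPM in corrected lines, against 47.4, 52.5, 83.7 and 79.7 in control lines (-2.39 ± 0.30, edgeR adjusted p = 0.000483), with 29.6 to 48.2 CPM in db/db lines. Pgm1, an enzyme that links glycogen to glycolysis, was at 3.86 and 3.67 CPM in corrected, 8.82 to 14.1 in db/db and 33.5, 35.5, 23.4 and 23.0 in control lines (-2.94 ± 0.28). The largest fall among genes of at least 5 CPM that met the stricter count, that of the Rap regulator Rap1gap2 (-3.51 ± 0.53), was shared in level with db/db lines, at 2.34 and 2.27 CPM in corrected and 0.913 to 1.95 in db/db lines, against 15.5, 14.9, 37.5 and 37.1 CPM in control lines. Hal, which starts histidine breakdown, was likewise at 1.98 and 1.96 CPM in corrected and 1.07 to 2.26 in db/db lines, against 5.44 to 16.3 in control lines. The remaining named falls were Ccdc7a, Ccdc92b, Lexm, Slfn9, Clca3b, Lrp8os2, Zc4h2, Cfp, Nphs1 and Ndufa4l2. With the shared name as the unit, Obox6, Aox3, Ccdc7a, Lexm and Ndufa4l2 of these 30 genes were no longer called by edgeR.

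**Figure D1:**
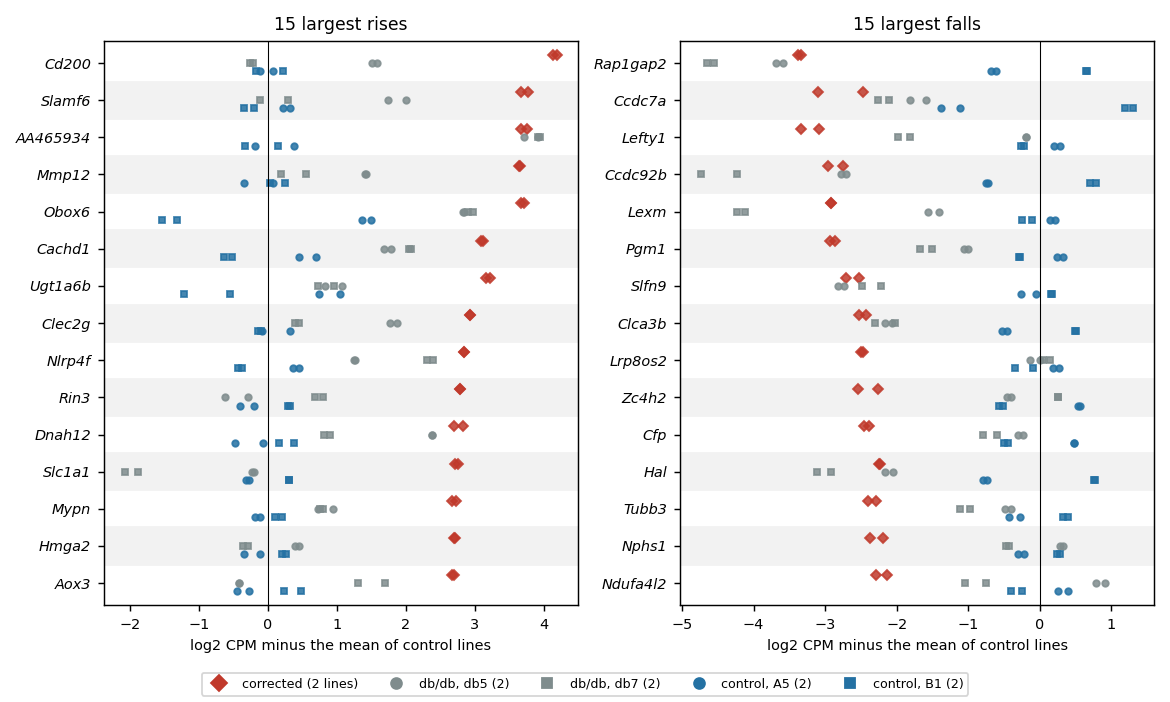
Level of the 15 largest rises and 15 largest falls in every line, as log2 CPM minus the mean of the 4 control lines (x axis). Corrected lines are red diamonds, db/db lines grey and control lines blue, with circles and squares for shared names, and the red points lie outside the range of the blue points in every row because the rule required it.

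In the lists of the protein synthesis machinery, falls outnumbered rises in corrected lines. They also did in the set of all genes over 100 CPM, of which 847 of 2200 fell and 169 rose. Of 79 cytosolic ribosomal protein genes, 66 fell and 0 rose, with a median log2 fold change of -0.343, beside 17.0% of all tested genes that fell and a median of -0.008. Per line, the median of the list against the mean of control lines was -0.339 and -0.344 in corrected lines, -0.212 to 0.039 in db/db lines and -0.016 to 0.029 in control lines. Of 97 ribosome biogenesis factors, 71 fell and 0 rose (median -0.383), and of 78 mitochondrial ribosomal protein genes, 50 fell and 0 rose (median -0.394). The summed level of the 79 cytosolic ribosomal genes was 57140 and 56610 CPM in corrected lines, against 70870, 73190, 72040 and 72040 CPM in control lines, a ratio of 0.790. With library size alone, by which 22.4% of all genes rose and 10.4% fell, 29, 50 and 28 genes of these 3 lists fell, and with the shared name as the unit 28, 41 and 15. By limma-voom, in which lines of 1 name form a random block, 5, 37 and 4 fell, so that few ribosomal protein calls were left, with medians of -0.344, -0.375 and -0.388. Without db_c_1 the falls numbered 13, 40 and 15, and without db_c_2 they numbered 15, 38 and 14.

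Nop58 illustrates the biogenesis factors. It encodes a core protein of small nucleolar particles, which guide the modification of ribosomal RNA, and was at 263 and 257 CPM in corrected lines, 435 to 465 in db/db lines and 429, 421, 412 and 433 CPM in control lines. All 8 lines of the other groups lay above both corrected lines (log2 -0.70 ± 0.06, edgeR adjusted p = 5.77e-05). Heatr1, needed for transcription and processing of ribosomal RNA, was at 178 in both corrected lines, against 252 to 264 CPM in control lines (-0.54 ± 0.06). Rrs1 (-0.69 ± 0.07), Ppan (-0.73 ± 0.09) and Utp4 (-0.60 ± 0.07) fell by similar amounts, and the abundant nucleolar proteins Ncl (-0.29 ± 0.07) and Npm1 (-0.26 ± 0.07) by less. Fbl, the methyltransferase that works beside Nop58, was at 269 and 265 CPM in corrected and 299.6 to 308 CPM in control lines and was not called (edgeR adjusted p = 0.11). Rpl35, a protein of the large subunit, was at 255 and 252 CPM in corrected lines, 332 to 387 in db/db and 385 to 416 in control lines (-0.64 ± 0.07, edgeR adjusted p = 0.00029). Rps13 (-0.47 ± 0.07), Rpl39 (-0.52 ± 0.08) and Rplp0 (-0.29 ± 0.08) also fell, while Rps6 (-0.21, edgeR adjusted p = 0.0671) and Rpl10 (-0.22, 0.0843) were not called. Among mitochondrial ribosomal proteins, Mrpl38 was at 28.6 and 28.4 CPM in corrected lines, against 69.2, 70.5, 49.7 and 49.9 in control lines (-1.07 ± 0.17), and Mrps7 fell by 0.67 ± 0.10 on the log2 scale. Of 35 genes of the RNA polymerase I and III machinery, which transcribes ribosomal RNA and tRNA, 16 fell and 2 rose (median -0.279), among them the polymerase subunits Polr1e (-0.46 ± 0.06) and Polr1c (-0.57 ± 0.09), with 5 falls when either corrected line was left out and 8 with the shared name as the unit.

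**Figure D2:**
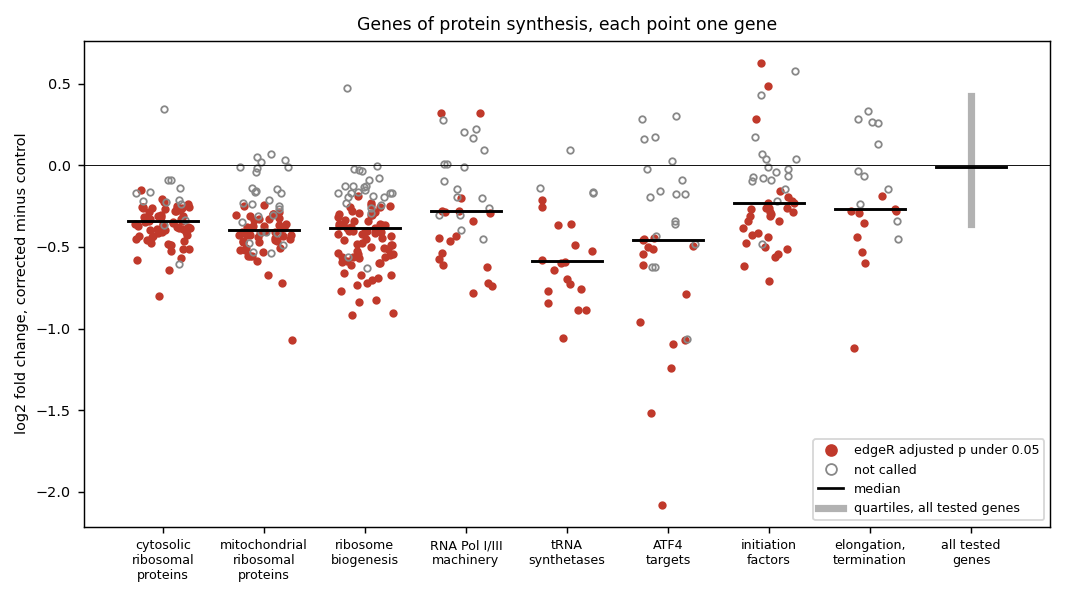
Log2 fold change (corrected minus control, y axis) of each gene of 8 protein synthesis lists, with called genes as filled red points, other genes open and list medians as black bars; at the right the median and quartiles of all tested genes. Medians of the lists lie between -0.584 and -0.23, and that of all tested genes at -0.008.

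Aminoacyl-tRNA synthetases, which load amino acids onto tRNA, had the lowest median of the protein synthesis lists. Of 22 cytosolic synthetase genes, 18 fell and 0 rose, with a median of -0.584, and line medians of -0.551 and -0.593 in corrected lines, -0.119 to 0.019 in db/db lines and -0.036 to 0.051 in control lines. Aars, which loads alanine, was at 244 and 236 CPM in corrected lines, 412 to 446 in db/db lines and 473, 459, 432 and 415 CPM in control lines (-0.89 ± 0.07, edgeR adjusted p = 5.45e-05). Lars was at 204 and 201 CPM in corrected lines, against 342 to 356 CPM in control lines (-0.77 ± 0.05, edgeR adjusted p = 3.49e-05). Cars (-0.84 ± 0.07), Iars (-0.76 ± 0.07) and Rars (-0.70 ± 0.06) fell alike. Without db_c_1 or db_c_2, 12 and 10 synthetases fell.

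Several synthetase genes are known targets of ATF4, the factor that raises amino acid supply under stress. Of 33 genes of the ATF4 response list, 15 fell and 0 rose (median -0.455). Atf4 itself, on chromosome 15, was at 189 and 185 CPM in corrected lines, 335 to 374 in db/db lines, and 539, 496, 368 and 369 CPM in control lines (-1.25 ± 0.16, edgeR adjusted p = 0.000502). Corrected lines lay below all others, and A5 above B1 control lines. Chromosome 15 as a whole had median log2 levels of 0.212 and 0.216 in A5, -0.211 and -0.223 in B1 and -0.190 and -0.203 in corrected lines. In db/db lines they were -0.26 to -0.161. The part of the chromosome in the level of Atf4 was not tested. Aldh18a1, which starts the synthesis of proline from glutamate and lies on chromosome 19, was at 42.1 and 41.1 CPM in corrected lines, 91.3 to 99.6 in db/db lines and 114 to 123 CPM in control lines. It had the smallest p of the list (-1.52 ± 0.06, edgeR adjusted p = 2.41e-06). The amino acid transporters Slc7a5 (-0.61 ± 0.07) and Slc3a2 (-0.45 ± 0.06), which form a heterodimer, fell, as did Mthfd2 of the mitochondrial folate cycle (-0.96 ± 0.15), asparagine synthetase Asns (-0.44 ± 0.09) and the serine synthesis enzyme Psat1 (-0.54 ± 0.13). Across the lines the ATF4 list median was -0.445 and -0.461 in corrected lines, -0.248 to 0.039 in db/db lines, 0.177 and 0.154 in the A5 control lines and -0.161 and -0.166 in the B1 lines. Its falls numbered 7 without db_c_1, 6 without db_c_2 and 8 with the shared name as the unit.

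ATF4 and C/EBP proteins bind a composite element, and the letters TGATGCAA, a form of it, were searched on both strands in the 250 bases before the start of each gene in RefSeq (GRCm38.p6), for the 13105 tested genes that had such a window. The letters stood in 0.549% of all windows, in 2 of 14 synthetase windows (14.3%) and in 5 of 27 windows of the ATF4 list (18.5%). That list was written from known ATF4 targets, so its share does not bear on these samples. Of its 5 genes with a match, Pycr1 (edgeR adjusted p = 0.18), Fgf21 (0.337) and Slc7a11 (0.671) were not called. The stretches of 90 bases around the match are shown for the 4 called genes among these, with the element, which here reads TTGCATCA on the strand of the gene, in capitals. Genes of the ATF4 list were picked here for the match after their values were seen.
Aars, chr8:111033689-111033778, forward strand: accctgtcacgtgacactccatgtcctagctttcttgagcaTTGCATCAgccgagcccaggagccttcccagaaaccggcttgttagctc
Tars, chr15:11399659-11399748, reverse strand: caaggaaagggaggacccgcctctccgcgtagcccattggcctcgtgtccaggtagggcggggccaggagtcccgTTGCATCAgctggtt
Chac1, chr2:119351008-119351097, forward strand: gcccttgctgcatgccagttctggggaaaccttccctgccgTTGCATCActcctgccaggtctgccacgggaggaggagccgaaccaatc
Nupr1, chr7:126625532-126625621, reverse strand: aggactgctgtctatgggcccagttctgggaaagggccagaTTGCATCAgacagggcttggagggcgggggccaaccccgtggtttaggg
Chac1, an enzyme that degrades glutathione, was at 2.14 and 2.08 CPM in corrected lines, 5.71 to 8.54 in db/db lines and 13.6, 11.99, 5.68 and 4.53 CPM in control lines (-2.08 ± 0.45, edgeR adjusted p = 0.00652). Nupr1, a small stress-response chromatin protein, was at 8.55 and 7.78 CPM in corrected lines, against 23.6, 20.7, 12.9 and 11.7 CPM in control lines (-1.07 ± 0.32, edgeR adjusted p = 0.0284). Tars, the synthetase for threonine on chromosome 15, was at 202 and 199 CPM, against 251 to 261 CPM (-0.36 ± 0.07). The match is a description of letters and not a site shown to be bound.

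Initiation factors showed mixed directions among abundant members. Of 47, 27 fell and 3 rose (median -0.230), and of 21 elongation and termination factors, 10 fell and 0 rose (median -0.268). With library size alone as the scaling, 4 initiation factors rose and 10 fell, and 4 elongation factors rose and 5 fell. Without db_c_1 or db_c_2, 5 and 2 initiation factors and 4 and 3 elongation factors fell, and by limma-voom 5 and 2. Eif4a2, a helicase paralogue that unwinds messenger RNA leaders, was at 800.4 and 829.85 CPM in corrected lines, 481 to 581 in db/db lines and 569, 540.05, 488 and 511 CPM in control lines (0.63 ± 0.08, edgeR adjusted p = 0.000652). The start codon selection factor Eif1ax, on the X chromosome, also rose (0.49 ± 0.09). Eif5a fell, at 913 and 903 CPM against 1198 to 1268 CPM (-0.44 ± 0.08). The elongation factors Eef2 (-0.14, edgeR adjusted p = 0.163) and Eef1a1 (0.13, 0.637) were not called, with Eef1a1 at 10483 and 10477 CPM in corrected lines, against 11875 and 11651 CPM in the A5 control lines and 7465 and 7352 CPM in the B1 lines. Cap-binding Eif4e (-0.50 ± 0.17, edgeR adjusted p = 0.0428) and its inhibitor Eif4ebp1 (-0.51 ± 0.17, 0.043) passed the threshold narrowly. Both calls ended with the shared name as the unit and with library size alone.

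Genes of the mTOR pathway changed in both directions, with a share of rises near that of all genes, and in the insulin list rises outnumbered falls. Of 49 genes of the mTOR complexes, TSC, Rag GTPases, Ragulator and S6 kinases, 8 rose and 13 fell (median -0.154), and 2 rose and 3 fell when either corrected line was left out. Neither Mtor (-0.08, edgeR adjusted p = 0.386) nor its partner Rptor (-0.26, 0.0807) was called. Tfeb, a transcription factor of lysosome genes that mTOR holds in the cytoplasm, was at 18.9 and 18.5 CPM in corrected lines, 24.2 to 29.1 in db/db and 41.6, 44.0, 53.2 and 48.2 CPM in control lines (-1.32 ± 0.12, edgeR adjusted p = 8.62e-05). The mTOR inhibitor Akt1s1 (-0.79 ± 0.13) and the amino acid sensing genes Rragc (-0.52 ± 0.07) and Lamtor3 (-0.63 ± 0.14) fell. Sesn1, an inhibitor of mTOR signalling (0.68 ± 0.12), and Rps6ka3, which encodes a kinase of the RSK family (0.83 ± 0.09), rose. Rps6ka3 was at 42.3 and 40.5 CPM in corrected lines and 39.3 to 49.3 CPM in db/db lines, against 22.9 to 23.6 CPM in control lines.

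Of 35 genes of the insulin, IGF receptor and PI3K-AKT list, 13 rose, 2 fell and 20 were not called (median 0.199; 9 rose and 0 fell when either corrected line was left out), beside 16.2% of all tested genes that rose. The insulin receptor gene Insr was at 57.4 and 57.8 CPM in corrected lines, 25.1 to 34.3 in db/db lines and 29.8, 29.3, 28.2 and 27.5 CPM in control lines (1.004 ± 0.11, edgeR adjusted p = 0.00024). Igf2, an imprinted growth factor gene, was at 26.1 and 22.6 CPM in corrected lines, 2.61 to 3.49 in db/db lines and 3.82, 3.83, 6.89 and 6.07 CPM in control lines (2.23 ± 0.23, edgeR adjusted p = 0.000211). Pik3r3, a regulatory subunit of PI3K, rose (1.26 ± 0.15), as did the AKT phosphatase gene Phlpp2 (1.16 ± 0.15) and the receptor Igf2r (0.51 ± 0.08), which takes up and clears IGF2. Sgk1, a kinase downstream of PI3K, was at 115 and 116 CPM in corrected lines, against 189, 174, 321 and 326 CPM in control lines, and fell (-1.12 ± 0.27, edgeR adjusted p = 0.0118).

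Myc, on chromosome 15, was at 397 and 381 CPM in corrected lines, 612 to 830.01 in db/db lines and 647, 619, 579 and 552 CPM in control lines (-0.62 ± 0.12, edgeR adjusted p = 0.00344). No library count separates the cell's own Myc from that of the reprogramming virus. Its partner Max (-0.69 ± 0.09) and the antagonist Mnt (-0.62 ± 0.06) fell as well, and of 14 genes of the MYC network 5 fell and 2 rose (median -0.235; 4 fell without db_c_1 and 2 without db_c_2). MYC and related factors bind the E-box CACGTG. Its letters stood in 8.75% of 80 windows of biogenesis factors and 7.92% of all 13105 windows when the 250 bases before the start were read, and in 23.8% and 9.61% when the 50 bases after the start were added.

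**Figure D3:**
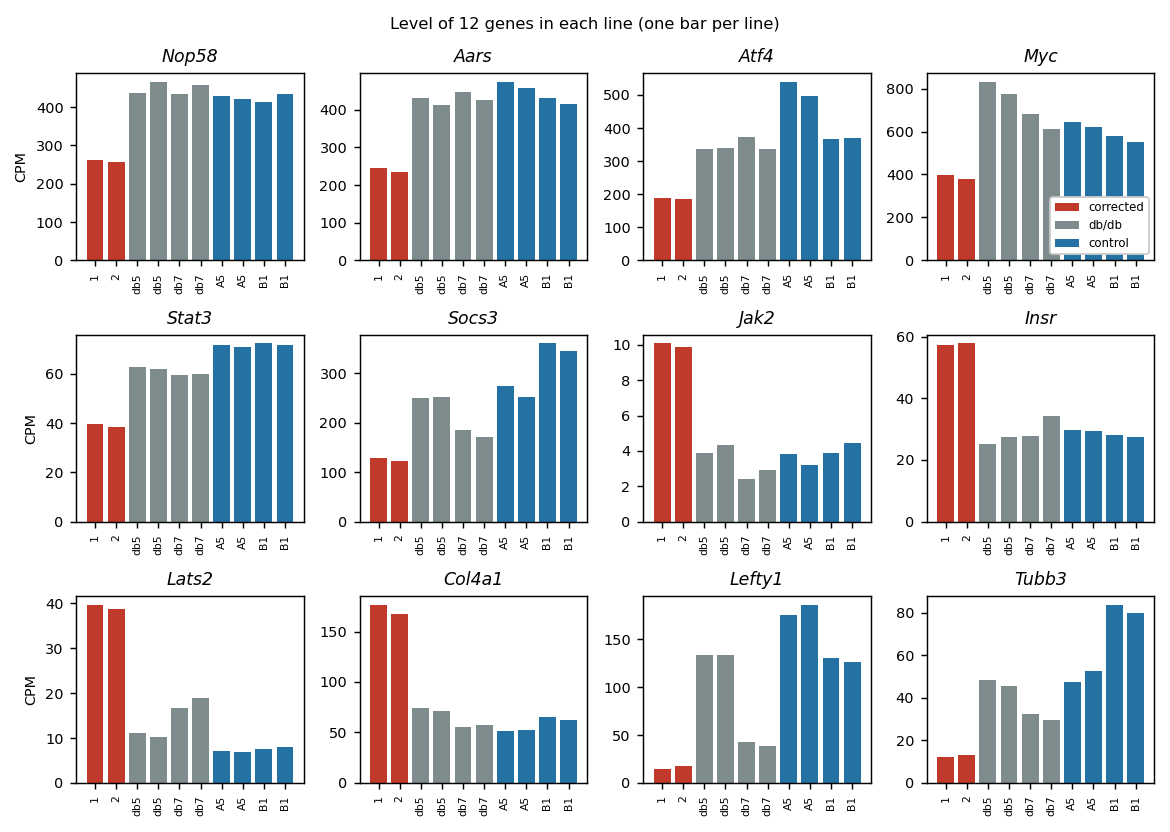
Level (CPM, y axis from 0) of 12 genes in each line, 1 bar per line, with corrected lines in red at the left, db/db lines in grey and control lines in blue at the right. Nop58, Aars, Atf4, Myc, Stat3, Socs3, Lefty1 and Tubb3 are lower in both corrected lines than in every other line, and Jak2, Insr, Lats2 and Col4a1 higher.

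Lepr was under 1 CPM in every line, at 0.718 and 0.606 CPM in corrected lines, 0.368, 0.371, 0.186 and 0.297 in db/db lines and 0.348, 0.460, 0.431 and 0.456 CPM in control lines. The corrected lines were the highest, but the difference from control lines did not pass the test (log2 0.63 ± 0.27, edgeR adjusted p = 0.101). Counts summed over all of Lepr carry no information on the repaired splice site. Of 21 genes of the receptor and its proximal signalling, 5 rose and 4 fell (median 0.22). Jak2, the kinase bound to the receptor, was at 10.1 and 9.91 CPM in corrected lines, 2.44 to 4.34 in db/db lines and 3.82, 3.22, 3.91 and 4.45 CPM in control lines, and rose (1.38 ± 0.21, edgeR adjusted p = 0.00135). Stat3 was at 39.7 and 38.6 CPM in corrected lines, 59.4 to 63.0 in db/db lines and 71.6, 70.8, 72.4 and 71.6 CPM in control lines, and fell (-0.87 ± 0.06, edgeR adjusted p = 2.74e-05). Socs3, the feedback inhibitor that STAT3 induces, was at 129 and 123 CPM in corrected lines, 171 to 252 in db/db lines and 275, 253, 361 and 345 CPM in control lines (-1.30 ± 0.20, edgeR adjusted p = 0.00128). Kinase and transcription factor transcripts thus moved in opposite directions. The tyrosine phosphatase gene Ptpn1, which acts on JAK2, was at 61.2 and 60.5 CPM against 57.0 to 60.9 CPM and was not called (0.04 ± 0.08, edgeR adjusted p = 0.764), while the related Ptpn2 fell (-0.42 ± 0.07) and Ptpre, at 0.992 and 1.04 CPM against 0.157 to 0.356 CPM, rose (2.04 ± 0.34).

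On the LIF side of the same kinases, of 21 genes 4 rose and 5 fell (1 and 2 when either corrected line was left out), with a median of -0.013 that turned positive under several settings (0.117 with library size alone). The receptor chains Lifr (0.52, edgeR adjusted p = 0.185) and Il6st (0.14, 0.109) were not called. Bcl3, a transcriptional coactivator known as a STAT3 target, was at 17.2 and 15.6 CPM in corrected lines, against 40.5, 45.3, 62.3 and 59.2 CPM in control lines (-1.66 ± 0.28). Socs2, a feedback inhibitor of cytokine receptors, fell (-0.71 ± 0.12), and the kinase gene Jak1, on chromosome 4, rose (0.45 ± 0.09). Immediate early genes, which growth signals switch on within minutes, fell in 10 of 22 cases and rose in 2 (median -0.292), with 7 falls without db_c_1 and 6 without db_c_2. The list median was -0.293 and -0.298 in corrected lines, -0.382 to -0.198 in db/db lines and -0.087 to 0.036 in control lines. It was thus at a like level in corrected and db/db lines. Fosb was at 59.3 and 66.0 CPM in corrected lines, 90.9 to 165 in db/db lines and 180.3 to 202 CPM in control lines (-1.61 ± 0.23), and Egr2 (-1 ± 0.09) and Ier2 (-0.65 ± 0.08) fell, while Fos was not called (-0.10, edgeR adjusted p = 0.517).

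Of 19 core pluripotency factors and partners, 5 rose and 5 fell (median -0.086), with changes of -0.81 to 1.044 on the log2 scale, and 1 rose and 0 fell without db_c_1, and 1 rose and 1 fell without db_c_2. Nanog was at 553 and 542 CPM in corrected and 471 to 617 in control lines (0.01 ± 0.12, edgeR adjusted p = 0.958). Klf4 (-0.05, 0.681) and Sox2 (-0.22, 0.103) were not called, and Pou5f1 fell by 0.21 ± 0.06 on the log2 scale (edgeR adjusted p = 0.0207), a call that ended with the shared name as the unit. As for Myc, Pou5f1, Sox2 and Klf4 counts hold any transcript of the virus too. Of 23 naive pluripotency factors, which mark the state before implantation, 9 fell and 0 rose (median -0.261; 3 fell without db_c_1 and 4 without db_c_2). Klf2, a factor of that state under STAT3 and ERK control, was at 139 and 137 CPM in corrected lines, 161 to 208 in db/db lines and 208, 204, 311 and 302 CPM in control lines (-0.89 ± 0.19). Tcl1 (-0.83 ± 0.12), Nr5a2 (-0.62 ± 0.10) and Fbxo15 (-0.44 ± 0.05) fell too. The naive list median was -0.239 and -0.197 in corrected lines and -0.067 to 0.058 in control lines. In db/db lines it was -0.047 and -0.057 (db5) and -0.227 and -0.298 (db7). Primed genes, of the state after implantation, went both ways, with 4 up and 4 down of 23 (2 and 0 when either corrected line was left out). The activin antagonist Fst was at 19.08 and 20.1 CPM in corrected lines, against 6.34 to 6.78 CPM in control lines (1.59 ± 0.10, edgeR adjusted p = 2.22e-05), and Otx2, a factor of primed cells and head development, at 8.93 and 10.3 CPM, against 20.4 to 26.0 CPM (-1.26 ± 0.27). The DNA methylation cofactor Dnmt3l was at 527 and 529 CPM in corrected lines, 277 to 388 in db/db lines and 193, 205, 315 and 311 CPM in control lines (1.04 ± 0.21), and the demethylation enzyme Tet3 (1.21 ± 0.12) and the methyltransferase Dnmt3a (0.81 ± 0.20) also rose. Of 35 two-cell-like genes, normally used by the early cleavage embryo, 8 fell and 0 rose (median -1.029), and 3 fell when either corrected line was left out. The median of the two-cell-like list was -0.859 and -0.99 in corrected lines and -0.091 to 0.059 in control lines. In db/db lines it was lower still, at -2.558 to -1.173. Many of these genes have close paralogues, between which the estimated counts are hard to assign.

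Among genes of primitive endoderm and of basement membrane, rises outnumbered falls, but many members were not called. Of 28 primitive endoderm genes, 12 rose and 3 fell (median 0.871), although their summed level was lower (1280 and 1245 CPM in corrected lines, against 1319 to 1519 CPM in control lines), with the abundant Apoe among the falls (-0.46 ± 0.11). Gata3 was at 5.49 and 5.18 CPM in corrected lines, 0.422 to 1.01 in db/db lines and 0.720, 0.921, 1.32 and 1.65 CPM in control lines (2.19 ± 0.38). This transcription factor also serves trophoblast. Hnf4a, a regulator of visceral endoderm, was at 14.4 and 14.7 CPM in corrected lines, against 5.66 to 8.81 CPM in control lines (1.02 ± 0.17), and the endocytic genes Cubn (2.39 ± 0.39) and Dab2 (1.596 ± 0.28) rose at levels of 1.26 to 2.57 CPM in corrected lines. Of the 7 defining markers, Gata4, Pdgfra, Dab2 and Foxa2 rose, while Gata6 (-0.41), Sox17 (0.94) and Sox7 (0.11) were not called. Of the 28 genes, 5 rose without db_c_1 and 9 without db_c_2, and 6 with the shared name as the unit.

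Of 22 genes of basement membrane collagens, laminins and linkers, 8 rose and 1 fell (median 0.384), and their summed level was 1.29 times that of control lines. Without db_c_1 or db_c_2, 4 and 5 rose. Col4a1, a chain of the collagen network of basement membranes, was at 176 and 167 CPM in corrected lines, 55.8 to 74.0 in db/db lines and 51.3, 52.1, 65.3 and 62.6 CPM in control lines (1.57 ± 0.14, edgeR adjusted p = 7.85e-05). Its neighbour and partner chain Col4a2 was at 96.4 and 91.6 CPM, against 26.2 to 37.5 CPM (1.57 ± 0.14). The laminin chain genes Lama5 (0.81 ± 0.06) and Lamc1 (0.58 ± 0.10) rose and Lama1 fell (-0.84 ± 0.13), with Lama5 at 387 and 388 CPM in corrected lines, against 226, 236, 219 and 207 CPM in control lines. Of 44 fibroblast genes 8 fell, a share near the 17.0% of all genes, and 2 rose (median -0.242; 6 fell without db_c_1 and 2 without db_c_2), such as the fibrillar collagen gene Col1a1, at 87.3 and 69.1 CPM in corrected lines, 53.6 to 83.8 in db/db lines and 117, 142, 157 and 154 CPM in control lines (-0.87 ± 0.20), and the collagen crosslinking enzyme Lox (-1.11 ± 0.17).

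Rises also outnumbered falls among genes of the Hippo pathway, which couples cell contact to growth. Of 16 genes of YAP-TEAD factors and targets, 9 rose and 2 fell (median 0.5; -0.260 to 0.038 in db/db lines and -0.029 to 0.028 in control lines, against 0.537 and 0.513 in corrected lines). Lats2, the kinase that inhibits YAP and is itself a YAP target, was at 39.7 and 38.7 CPM in corrected lines, 10.2 to 18.9 in db/db lines and 7.08, 6.79, 7.58 and 7.91 CPM in control lines (2.42 ± 0.21, edgeR adjusted p = 8.62e-05). Wwtr1, the paralogue of Yap1 known as TAZ, was at 80.3 and 81.3 CPM in corrected lines, against 47.8 to 52.0 CPM in control lines (0.72 ± 0.12). Tead1 (0.71 ± 0.18) and Tead3 (1.32 ± 0.31), DNA-binding partners of YAP, and Yap1 (0.27 ± 0.06) rose. Birc5, a target with a role in cell division, fell (-0.57 ± 0.15). When either corrected line was left out, 3 genes of the list rose, as with the shared name as the unit.

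TEAD proteins bind the letters GGAATG. These stood, on either strand, in the 250 bases before the start in 8 of 14 windows of the YAP-TEAD list (57.1%) and in 11.0% of all 13105 windows. The list was written from known YAP-TEAD factors and targets, so the share does not bear on these samples. Of the 8 genes with a match, Axl (edgeR adjusted p = 0.117) and Ajuba (0.67) were not called. For 4 genes of the list that rose, Crim1 among them (0.85 ± 0.14), 90 bases around the match are shown, 5′ to 3′ on the strand of the gene, with the letters in capitals.
Wwtr1, chr3:57575999-57576088, reverse strand: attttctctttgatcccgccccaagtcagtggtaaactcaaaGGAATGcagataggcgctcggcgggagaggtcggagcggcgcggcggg
Crim1, chr17:78200127-78200216, forward strand: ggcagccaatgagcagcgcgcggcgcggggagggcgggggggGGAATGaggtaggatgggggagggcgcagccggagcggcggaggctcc
Tead3, chr17:28350940-28351029, reverse strand: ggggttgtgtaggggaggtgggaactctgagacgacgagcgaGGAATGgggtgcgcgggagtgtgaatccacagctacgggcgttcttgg
Yap1, chr9:8004690-8004779, reverse strand: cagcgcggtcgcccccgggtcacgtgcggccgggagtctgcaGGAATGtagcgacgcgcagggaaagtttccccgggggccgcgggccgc

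In the BMP and Nodal lists, of the TGF-β family, rises outnumbered falls. Of 27 BMP and SMAD genes, 11 rose and 3 fell (median 0.387; -0.313 to -0.172 in db/db lines), and of 24 Nodal genes, 7 rose and 3 fell (median 0.054). BMP genes that rose numbered 3 without db_c_1 and 6 without db_c_2, and Nodal genes 5 and 4. Bmpr2, the type II BMP receptor gene, was at 40.9 and 38.9 CPM in corrected lines, 15.7 to 24.0 in db/db lines and 14.9, 13.5, 22.1 and 23.1 CPM in control lines (1.12 ± 0.23). The BMP transducer Smad1 (0.81 ± 0.11), the inhibitor Smad6 (1.28 ± 0.28), the extracellular antagonist Nog (1.32 ± 0.24) and the TGF-β receptor Tgfbr2 (1.47 ± 0.19) rose. Id3, a direct BMP target, was at 14.5 and 15.1 CPM in corrected lines, against 21.0 to 32.5 CPM in control lines, and fell (-0.91 ± 0.17). On the Nodal side, the transducer Smad3 (0.94 ± 0.13), the receptor Acvr1b (0.58 ± 0.12) and the protease Furin (0.64 ± 0.10), which cuts the Nodal precursor, rose, whereas the target Lefty1 fell as given above and Lefty2, at 233 and 234 CPM against 408, 403, 839.9 and 821 CPM, missed the threshold (-1.41 ± 0.49, edgeR adjusted p = 0.0503). Of 27 mesoderm and primitive streak genes, 6 rose and 1 fell (median 0.423; 1 rose without db_c_1 and 3 without db_c_2), mostly under 2 CPM, as Mixl1 at 0.313 and 0.390 CPM in corrected lines, against 0.0743 to 0.0993 CPM in control lines (2.02 ± 0.30).

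**Figure D4:**
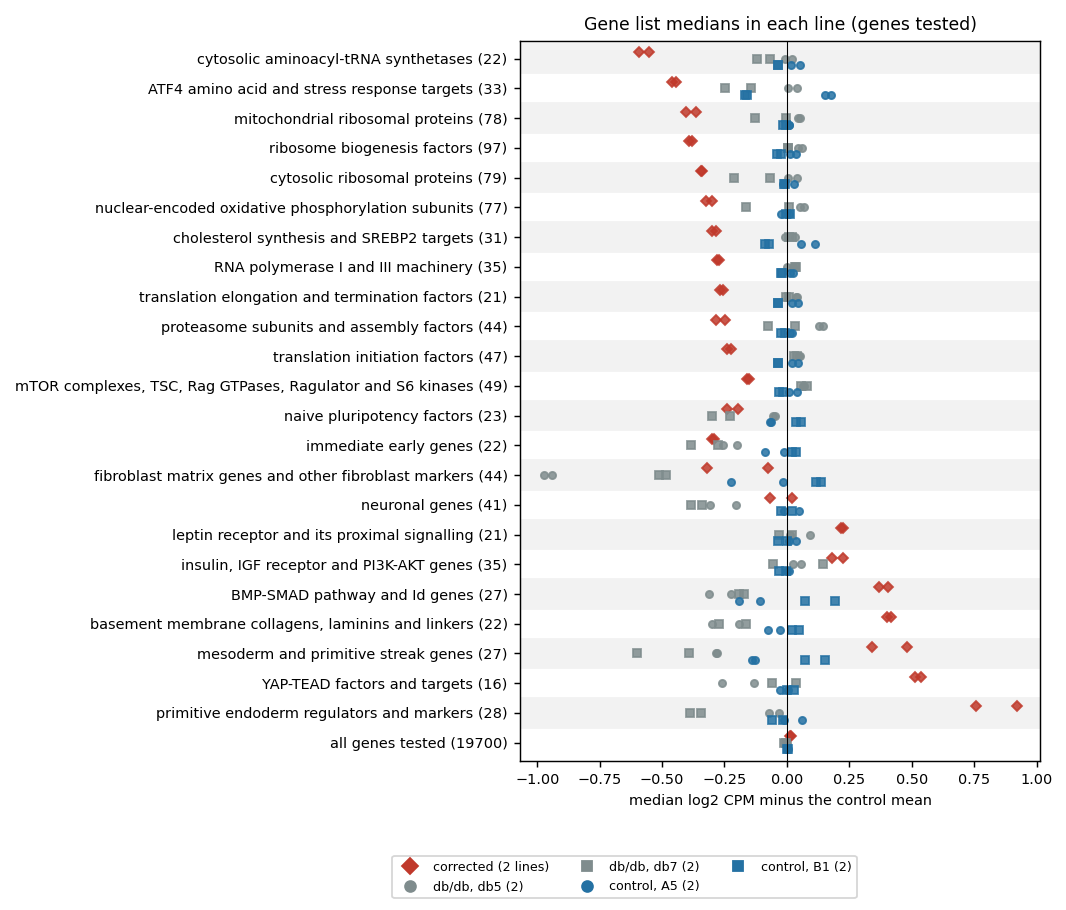
Median log2 level of 23 gene lists and of all tested genes in each line, relative to the mean of the control lines (x axis), with the number of tested genes in brackets. Red diamonds (corrected) lie left of all other lines for protein synthesis lists such as the synthetases (-0.551 and -0.593) and right of them for primitive endoderm (0.921 and 0.759), with grey symbols for db/db and blue for control lines.

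Neuronal genes fell more often than they rose. Of 41, 12 fell and 5 rose, with a median of -0.058, which was 0.068 with library size alone. Without db_c_1 or db_c_2, 7 fell, and 0 and 1 rose. Besides Tubb3, the adhesion molecule Ncam1 was at 14.0 and 13.3 CPM in corrected lines, 23.5 to 27.8 in db/db lines and 32.3, 30.5, 32.3 and 33.1 CPM in control lines (-1.23 ± 0.09, edgeR adjusted p = 3.88e-05). Uchl1, an abundant ubiquitin hydrolase of neurons, was at 76.5 and 76.6 CPM, against 195, 205, 145 and 142 CPM (-1.16 ± 0.17), and the microtubule regulator Stmn2 at 216 and 214 CPM, against 289.8 to 374 CPM (-0.62 ± 0.11). The neurofilament gene Ina was at 3.69 and 4.06 CPM in corrected lines, 23.8 to 30.4 in db/db lines and 6.94 to 8.32 CPM in control lines (-0.94 ± 0.14). The summed level of the list was 830.3 and 823.1 CPM in corrected, 1169 to 1280 in db/db and 1032 to 1201 CPM in control lines. Among neural progenitor genes the share that rose was near the 16.2% of all tested genes, with a list median of 0.078. Of 27 neural progenitor genes 5 rose and 1 fell (2 rose when either corrected line was left out), the one with the smallest p being the forebrain factor Lhx2, at 1.72 and 1.93 CPM in corrected lines, against 0.285 to 0.520 CPM in control lines (2.10 ± 0.26).

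Most metabolic lists held more falls than rises. So did the set of all genes over 100 CPM, of which 847 of 2200 fell and 169 rose. The share of chaperones that fell was near the share of that set. Of 77 nuclear genes of oxidative phosphorylation, 46 fell and 0 rose (median -0.314), with Sdhb of complex II at 46.6 and 48.0 CPM in corrected lines, against 73.1 to 83.0 CPM in control lines (-0.74 ± 0.10), and 9 falls without db_c_1, 5 without db_c_2 and 5 by limma-voom. Of 31 cholesterol synthesis genes, 16 fell and 1 rose (median -0.290; 5 fell without db_c_1 and 7 without db_c_2), among them Fdft1, which makes squalene (-0.87 ± 0.11), and Fdps, which makes its precursor (-0.82 ± 0.11). Proteasome genes fell in 23 of 44 cases and rose in 2 (median -0.264; 6 fell without db_c_1, 5 without db_c_2 and 4 by limma-voom). The exception Psme4, an activator that caps the proteasome, was at 662 and 675 CPM in corrected lines, against 296, 296, 415 and 425 CPM in control lines (0.90 ± 0.17). Of 46 chaperones, 17 fell and 5 rose (4 fell without db_c_1 and 5 without db_c_2), and Herpud1, a gene of the endoplasmic reticulum stress response, was at 5.45 and 5.21 CPM in corrected lines, 9.21 to 11.3 in db/db lines and 30.1, 27.5, 15.4 and 15.3 CPM in control lines (-2.05 ± 0.30). In the p53 list, 11 of 27 genes rose and 6 fell (median 0.190; 7 rose without db_c_1 and 6 without db_c_2). Perp, a membrane protein of cell death and junctions, was at 83.4 and 83.6 CPM in corrected lines, against 33.2 to 36.5 CPM in control lines (1.26 ± 0.17), and the p53 inhibitor Mdm4 (1.09 ± 0.19) and the cell cycle inhibitor Cdkn2c (1.72 ± 0.23) rose. Of 18 iron genes 4 rose and 2 fell, with the iron reductase genes Steap3 (1.79 ± 0.12) and Steap2 (1.68 ± 0.18) higher, Steap2 at 48.3 and 50.3 CPM in corrected lines, against 12.3 to 18.5 CPM in control lines.

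Annotated transcript length and chromosome moved with these differences. Length and GC content of a gene were medians over all its GENCODE transcripts, whether or not these were expressed here. Such a median can differ from the length of the transcripts present in these cells. Among 9046 genes of at least 10 CPM, the median log2 fold change was -0.192 in the quintile with the shortest transcripts and 0.07 in that with the longest. The shortest quintile had 660 falls and 181 rises of 1810 genes, the longest 295 falls and 424 rises of 1809. The median of this annotated length was 628.5 bases for cytosolic ribosomal proteins, 846.5 for synthetases, 896 for biogenesis factors and 2546 for basement membrane genes, beside 1322 over all. With the trend over length and GC content removed, an alternative chosen after seeing the data in which 18.5% of all genes rose and 14.6% fell, 36 of 79 cytosolic ribosomal genes fell (median -0.19), 65 of 97 biogenesis factors (-0.34), 18 of 22 synthetases (-0.48) and 21 of 77 oxidative phosphorylation genes (-0.15), and 7 of 22 basement membrane and 10 of 16 YAP-TEAD genes rose. By biotype, 385 of 2145 long noncoding genes rose and 134 fell (median 0.287), and 148 of 980 processed pseudogenes fell and 52 rose (median -0.393). Whether length, GC content or chromosome set part of the differences was not tested further. The share of genes called ranged from 20.7% on chromosome 3 to 38.5% on chromosome 17. On chromosome 3 the median log2 level was 0.14 and 0.151 in db5 lines and 0.466 and 0.488 in db7 lines. It was 0.075 and 0.064 in A5, -0.077 and -0.064 in B1 and -0.079 and -0.091 in corrected lines. Such differences within groups enter the spread that all groups share, and their part in the low share was not tested.

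**Figure D5:**
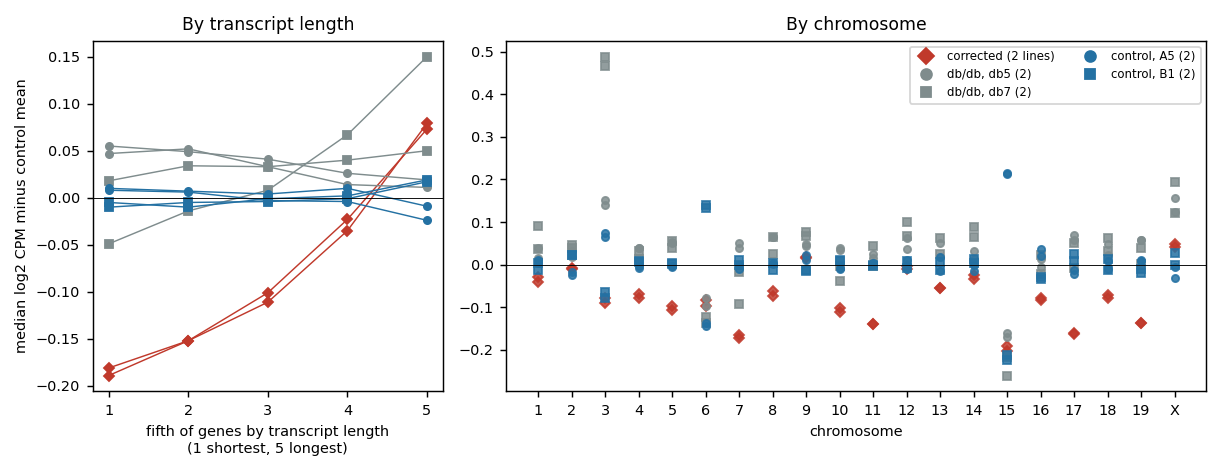
Median log2 level of genes of at least 10 CPM in each line, relative to the mean of control lines (y axis), by quintile of annotated transcript length (left) and by chromosome (right), with corrected lines in red, db/db lines in grey and control lines in blue. Corrected lines run from -0.181 and -0.189 in the shortest quintile to 0.073 and 0.079 in the longest, and A5 and B1 control lines split on chromosome 15.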

How the data were processed

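Libraries were stranded TruSeq mRNA libraries sequenced on a NovaSeq6000, per the labels' protocols. The authors deposited estimated counts per gene for 19 libraries, and the tool kallisto and build GRCm38 come from the submitters' processing notes. The sources used here state neither version nor index. Of 52143 identifiers, 51336 matched GENCODE M21 (99.38% of counts). As estimated counts share out reads among like transcripts, near-identical genes are uncertain, and 79.7% of values were whole within 1e-06.

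Groups came from the labels. No pair of libraries agreed within sampling noise (chi-square per degree of freedom at least 2.68 over 55 pairs), so none was merged. Counts were rounded and summed per line, and all 10 lines entered one fit in 3 groups (filterByExpr, 19700 genes; TMM; edgeR 4.0.16 quasi-likelihood test, R 4.3.3; Benjamini-Hochberg; threshold 0.05). The SE is the log2 fold change divided by the square root of F. List and line medians use log2 CPM with a prior count of 2. TMM factors were 1.086 and 1.09 in corrected and 0.9779 to 1.006 in control lines.

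Named genes were the 15 largest rises and falls of the strictest count with at least 5 CPM in the higher group (without predicted genes, pseudogenes, Xist, Tsix and Y-linked genes), members of described lists with the 6 smallest p-values or over 100 CPM, and 16 fixed genes. The members and the 56 gene lists were chosen with earlier results of these data known. No set test was run. On counts simulated for corrected against control (19233 genes), the fit called 46 of 50 genes raised and 36 of 48 lowered by a log2 of 2, 22 of 50 raised and 21 of 50 lowered by 1, and 12 of 19035 unchanged genes. Simulated lines were drawn independently, without near copies among them. The simulated counts therefore give no error rate for the real lines.

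Alternatives were other scalings, DESeq2 1.42.0, other filters, only both groups, libraries as samples with and without a replicate block, the shared name as the unit, limma-voom (3.58.1) with the name as a random block, A5 or B1 lines alone, the first letter as a covariate, leaving out chromosomes 3, 6 and 15 or single lines and, chosen after seeing the data, removal of the length and GC trend and of the second library of adb_db7. Python 3.11.15, pandas 2.3.3 and matplotlib 3.10.9 made tables and figures.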

Additional observations from a re-analysis of the deposited data

Results flagged for a closer look

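In groups of 4 lines, 204 sets of values (46 named genes and 56 lists, in db/db and control lines) were searched for a single line far from the other 3. A gap beyond Dixon's critical value arises by chance in about 1 in 20 sets of independent values, and 3 were found. Each group of 4 held pairs of lines of a shared name, so that rate does not apply here. The transcript AA465934 was at 9.811 CPM in db/db line adb_db5 and at 11.28 to 11.43 CPM in the other db/db lines, a gap of 0.907 of the range. Clec2g was at 1.782 CPM in control line bB6_A5 and at 1.283 to 1.341 CPM in the other control lines (0.885 of the range). The median of cytosolic ribosomal protein genes was 0.029 in control line bB6_A5 and -0.016 to -0.009 in the other control lines (0.844 of the range), while the corrected lines stood at -0.339 and -0.344.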

How the results depend on the processing

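The count of called genes, 6537 in the reported fit, was 2547 with the shared name as the unit, 2022 by limma-voom with the name as a random block, 11813 against A5 lines alone and 11714 against B1 lines alone. Both corrected lines stayed apart in the shared name fit, and the fits against A5 or B1 took their spread from lines of a shared name alone. The 2-fold count, 2078, was 1328 with a filter of 1 CPM, 1123 with the shared name and 839 by limma-voom. The count of genes 2-fold from both control names, 1477, was 896, 962 and 646 under the same 3 settings. Leaving out single lines gave 2377 to 5826 called genes, 1050 to 1963 of at least 2-fold and 870 to 1400 2-fold from both names, the lowest without a corrected line, when fewer samples enter. Other settings stayed within 1.5 times.

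Control and db/db libraries are numbered 1 and 2 and corrected libraries lettered a and b, so the groups share no number. With each library as a sample, 9387 genes were called with the duplicate number of the other groups as a replicate block and 9413 without it, in a fit that treats duplicates as independent.

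None of the 30 genes of largest change turned direction under any setting run. With the shared name as the unit 5 of them lost their call, by limma-voom 2, and without single lines 10 of 180 calls ended. Of list members named or eligible for naming that were called in the reported fit, 4 turned direction. All did so with the length and GC trend removed: Etv5 to 0.041, Rpl31 to 0.036, Cox5b to 0.042 and Trap1 to 0.023. The cause was not tested. Members without a call could change sign, as Nanog (log2 0.207 against A5 lines and -0.164 against B1 lines). Both corrected lines are near copies, so effects of correction and of a single founder cannot be told apart. Of genes under 1 CPM 18.4% were called, against 46.2% of those over 100 CPM, and the part of depth in this was not tested.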

Other observations

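The mitochondrial gene mt-Nd3, a subunit of complex I, was at 65.7 and 63.4 CPM in corrected lines and 48.3 to 72.7 in db/db lines, against 23.7, 21.8, 10.2 and 12.7 CPM in control lines (log2 1.92 ± 0.30, edgeR adjusted p = 0.00139), while mt-Nd1 (-0.69 ± 0.12) and mt-Co1 (-0.46 ± 0.08) fell. Of 49 imprinted genes outside the Dlk1-Dio3 cluster, 8 rose and 11 fell, beside 16.2% and 17.0% of all genes. Without db_c_1, 3 rose and 4 fell, and without db_c_2, 4 and 4. Besides Igf2, Slc22a18 was at 0.418 CPM in both corrected lines, 1.62 to 2.28 in db/db lines and 1.54, 1.604, 3.71 and 2.72 CPM in control lines (-2.52 ± 0.40), and Usp29 rose (1.11 ± 0.17). Of 22 retinoic acid and Hox genes, 7 rose and 1 fell, with the homeobox gene Meis2 at 24.7 and 23.4 CPM in corrected lines, against 4.72, 4.95, 10.3 and 10.6 CPM in control lines (1.65 ± 0.30). Without db_c_1 or db_c_2, 2 and 4 of these 22 rose.

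Of 48 DNA replication genes, 17 fell and 2 rose (median -0.181), and of 34 mitosis genes 5 fell and 3 rose (median 0.042; 0 fell and 2 rose without db_c_1, as without db_c_2). The share of replication genes that fell was near that of all genes over 100 CPM, of which 847 of 2200 fell. Mcm3, a subunit of the replicative helicase, was at 305 and 309 CPM in corrected lines, 413 to 438 in db/db lines and 455, 444, 441 and 429 CPM in control lines (-0.53 ± 0.05, edgeR adjusted p = 0.000164). Without db_c_1 or db_c_2, 4 and 3 replication genes fell. Among 19 interferon-stimulated genes 3 rose and 3 fell (1 and 0 without db_c_1 or without db_c_2), shares near those of all genes, with the peptide transporter Tap1 at 5.23 and 5.02 CPM in corrected lines, against 1.05 to 1.68 CPM in control lines (1.88 ± 0.21).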
